A study of Mus musculus with 6 samples.

Results

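The carboxylesterase genes examined here were Ces1b, Ces1c, Ces1d, Ces1e, Ces1f, Ces1g, Ces2a, Ces2c, Ces2e and Ces3a, 10 of the 55487 genes counted in each library. They are Ces1, Ces2 and Ces3 paralogues on mouse chromosome 8. The rule that picks them uses their symbols, but they were proposed with earlier results of these data known. All 10 passed the filter on low counts. The annotation holds 10 further Ces genes, which are described after them.

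Each library was made from 20 mg of frozen liver. The animals were male, 8 weeks old and on standard chow, 3 in each of 2 groups. SCADD livers were from the inbred substrain BALB_cBYJ, which lacks short-chain acyl-CoA dehydrogenase, needed in mitochondria to oxidise fatty acids of short chain. WT livers were from the substrain BALB_cJ. Genotype and substrain coincided in all 6 animals, so the enzyme defect cannot be told apart from any other difference between the substrains.

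Carboxylesterases are serine hydrolases that split ester, amide and thioester bonds. In the liver most of them reside in the lumen of the endoplasmic reticulum, where they activate or clear drugs and other ester compounds and hydrolyse stored lipids, including triacylglycerol drawn on for very-low-density lipoprotein (VLDL). Rodents carry many tandem copies of genes that are single in humans, and in mice one of them, Ces1c, is secreted into the blood as the plasma esterase.

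Reads counted in genes totalled 16948986 to 23912744 in SCADD libraries and 23991104 to 27148756 in WT libraries, and the 10 genes held between 39 and 55131 reads each in any one library. SCADD replicate 3 stood apart. It had the fewest reads, the highest share of unmapped reads (36.65%, against 25.05% and 27.44% in the other SCADD libraries and 13.58% to 16.36% in WT) and the largest share of TPM in the major urinary protein (Mup) genes, 14.8%, against 7.37% and 8.53% in the other SCADD libraries and 3.23% to 4.16% in WT. TPM, a transcript abundance, is scaled by gene length and to a fixed total. In this library the median ratio of TPM to CPM over genes was 0.768 of the WT mean, against 1.03 and 1.08 in the other SCADD libraries, and the reason was not tested. Fold changes were therefore taken from CPM (read counts scaled to a common library size, with TMM, the trimmed mean of M-values, between libraries), and TPM was used to rank genes by level, to sum the family and as a second scale for the genes that rose. Acads, the gene of the missing enzyme, had 99.3, 104 and 97.0 CPM in SCADD livers, against 185, 166 and 196 CPM in WT livers, so each library labelled SCADD had the lower level.

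The genes are close copies of one another, and the sequence around the catalytic serine shows how close. Each coding sequence held 1 match to the codons of the serine hydrolase signature, glycine, any residue, serine, any residue, glycine. The 60 bases around it are shown for Ces1f and Ces2e, the genes that rose, for the 2 members nearest to each in coding sequence (Ces1e and Ces1d, Ces2c and Ces2a), and for Ces3a with its neighbour Ces3b. The 15 bases in capitals are the 5 codons of the signature. The sequences are the coding strand of GENCODE release M21 transcripts on GRCm38, 5′ to 3′.
Ces1f: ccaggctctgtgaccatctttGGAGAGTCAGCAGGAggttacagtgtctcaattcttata
Ces1d: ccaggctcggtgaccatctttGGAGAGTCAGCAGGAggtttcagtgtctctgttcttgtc
Ces1e: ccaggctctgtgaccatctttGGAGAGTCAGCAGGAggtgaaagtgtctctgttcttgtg
Ces2e: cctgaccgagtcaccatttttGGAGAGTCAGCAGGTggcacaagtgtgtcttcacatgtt
Ces2c: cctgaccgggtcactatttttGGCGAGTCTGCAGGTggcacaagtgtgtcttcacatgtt
Ces2a: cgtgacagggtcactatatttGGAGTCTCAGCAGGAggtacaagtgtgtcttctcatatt
Ces3a: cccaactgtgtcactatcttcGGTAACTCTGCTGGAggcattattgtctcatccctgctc
Ces3b: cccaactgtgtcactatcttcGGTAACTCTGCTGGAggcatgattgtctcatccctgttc

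Within this window members of the Ces1 group differed from each other at 4 to 15 of 60 positions and those of the Ces2 group at 4 to 11, while Ces1 and Ces2 members differed at 17 to 25. Ces3a and Ces3b differed at 2. Over whole coding sequences, identity was 72.0% to 88.7% among the 15 pairs of Ces1 members, 82.4% to 83.6% among the 3 pairs of Ces2 members and 56.6% to 58.9% between the 2 groups. The closest pair of members was Ces1b and Ces1c, at 88.7%, and Ces3a was 95.3% identical to Ces3b.

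Reads from such copies can be shared between genes. The share of 50-base stretches of a transcript that also occurred in a transcript of another gene was 1.3% for Ces1d, 1.6% for Ces1f, 1.7% for Ces1g, 3.2% for Ces1e and 3.4% for Ces2e. It was 11.6% for Ces1b, 17.0% for Ces1c, 22.2% for Ces2a, 30.9% for Ces3a and 42.2% for Ces2c, whose counts are the less certain ones. Both genes that passed the test below are thus among the 5 that share the least. At least 99.2% of stranded reads lay on the counted strand for each of the 10 genes in each library, so antisense reads made little difference. The estimated counts of RSEM, which divides shared reads among genes, were 0.828 to 1.14 of the unique counts, from 0.838 to 0.853 for Ces1f, from 0.838 to 0.869 for Ces2e and, over the widest range, from 0.993 to 1.14 for Ces2c.

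By RSEM TPM, the 10 genes fell into the same 3 tiers in every library. Ces1c, Ces1d, Ces1f and Ces3a were always the 4 highest, Ces1b, Ces1e and Ces2a came next, and Ces2e, Ces1g and Ces2c ranked 8, 9 and 10 in each of the 6 libraries. In SCADD livers Ces1d averaged 975 ± 341 TPM, Ces1f 828 ± 102, Ces1c 806 ± 408 and Ces3a 626 ± 195 (SD, n = 3). In WT livers Ces1c averaged 876 ± 199.6 TPM, Ces3a 825 ± 129.7, Ces1d 713 ± 169.9 and Ces1f 563 ± 54.0 (SD, n = 3). The ranges of neighbours in this order overlapped, and the highest gene differed between libraries. Ces1d led in SCADD replicate 1, Ces1c in SCADD replicate 2, Ces1f in SCADD replicate 3, Ces3a in WT replicates 1 and 3, and Ces1c in WT replicate 2. The levels depend on the count used. Computed from unique reads per effective length, 9 of 20 group means stayed within 1 SD of the RSEM value. The genes were not ranked again on that scale.

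The middle tier averaged 236 ± 66.7 TPM for Ces1e, 196 ± 58.0 for Ces2a and 188 ± 74.6 for Ces1b in SCADD livers, and 237 ± 18.0 for Ces2a, 225 ± 26.9 for Ces1b and 185 ± 27.5 for Ces1e in WT livers (SD, n = 3). The ranges of neighbours in this tier overlapped too. Ces2e had 89.2 ± 24.6 TPM in SCADD and 60.4 ± 3.27 in WT, Ces1g 29.7 ± 18.2 and 31.2 ± 2.66, and Ces2c 4.09 ± 1.11 and 2.25 ± 0.847, in the same order of groups. Together the 10 transcripts made up 0.434%, 0.501% and 0.258% of all TPM in SCADD replicates 1, 2 and 3, against 0.412%, 0.376% and 0.327% in WT replicates 1, 2 and 3.

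**Figure D1:**
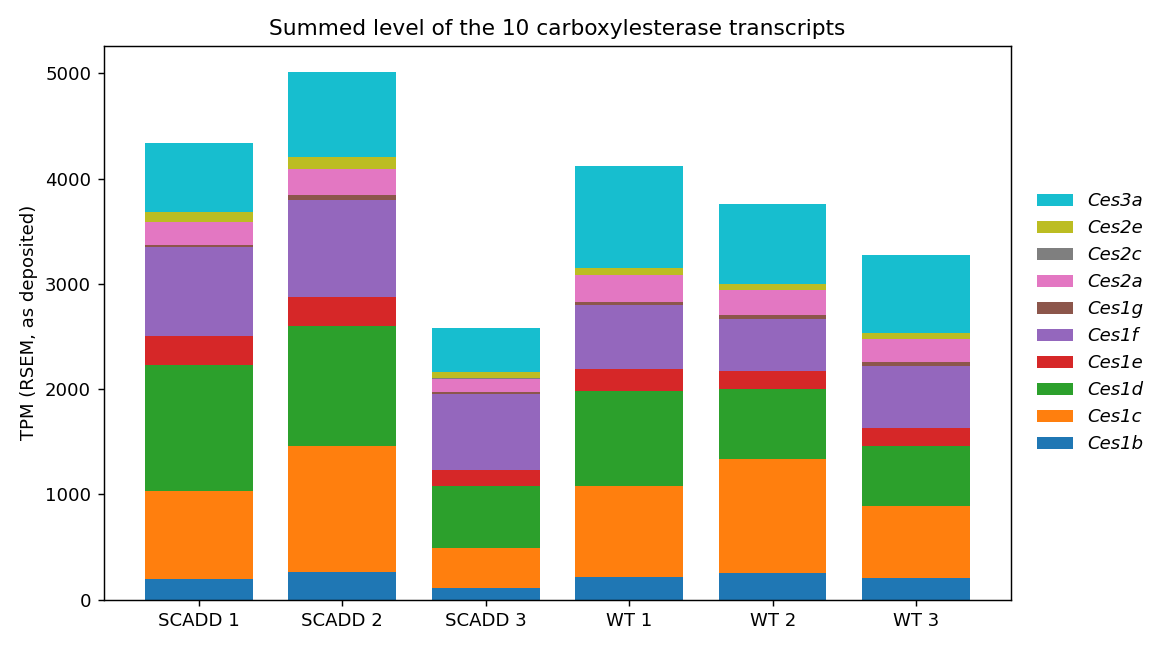
Level of each of the 10 carboxylesterase transcripts in TPM (RSEM values as deposited), stacked for each library, SCADD on the left and WT on the right. The sums were 4342, 5009 and 2584 TPM in SCADD replicates 1, 2 and 3 and 4120.2, 3759 and 3274 TPM in WT replicates 1, 2 and 3, so the groups overlapped, and SCADD replicate 3 was the lowest of the 6. In CPM, not drawn, the sums were 7618, 8285 and 6103 in SCADD and 6913, 6787 and 6173 in WT. The groups overlapped there too, and SCADD replicate 3 was the lowest by a smaller margin.

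Ces1f and Ces2e rose in SCADD livers, by 1.54-fold and 1.53-fold, and none of the other 8 genes passed the test. With edgeR's quasi-likelihood method (two-sided, Benjamini-Hochberg adjustment over 13498 tested genes, threshold 0.05), 2 of the 10 genes were thus called higher and 0 lower. Of all tested genes 7.02% were called, 4.22% higher and 2.80% lower, and 2 calls in 10 genes is a small number to set against that. At an unadjusted p under 0.05 there were 5 of the 10, all higher, against 22.7% of all tested genes in either direction and 12.4% higher. The other 3 were Ces1d, Ces1e and Ces2c. The median log2 fold change was 0.16 over the 10 genes and -0.00 over all tested genes, with 5 positive and 5 negative values. In whole-tissue RNA, fewer cells of a type and less RNA per cell cannot be told apart.

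Ces1f encodes a lipid hydrolase of the Ces1 group, also known as triacylglycerol hydrolase 2 (ENSMUSG00000031725, chromosome 8, 93256236 to 93279747, minus strand, GRCm38). It had 1499, 1555 and 1711 CPM in SCADD replicates 1, 2 and 3, against 1028, 937 and 1128 CPM in WT replicates 1, 2 and 3. Each SCADD library lay above each WT library, and SCADD replicate 3, the lowest of its group for most of the family, was here the highest. The means were 1589 ± 109.8 CPM in SCADD and 1031 ± 95.5 CPM in WT (SD, n = 3 each). This is 1.54-fold, or 0.62 on the log2 scale (SE 0.16), with an edgeR adjusted p of 0.0461.

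The call of Ces1f lay close to the threshold. Its log2 fold change ran only from 0.56 to 0.69 over 17 alternatives, but the adjusted p was above 0.05 without any 1 library other than SCADD replicate 3 (0.0574 to 0.209), with upper-quartile scaling (0.0627) and with RSEM counts (0.0530). It was 0.0305 without SCADD replicate 3 and 0.000674 by DESeq2. On the TPM scale the groups of Ces1f did not overlap either, with 842, 923 and 719.9 TPM in SCADD against 601, 501 and 587 TPM in WT.

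Ces2e belongs to the Ces2 group, whose enzymes prefer esters with a small acyl and a large alcohol part and also act on acylglycerols (ENSMUSG00000031886, chromosome 8, 104926260 to 104934672, plus strand). It had 181, 205 and 167 CPM in SCADD replicates 1, 2 and 3, against 121, 120.0 and 121 CPM in WT replicates 1, 2 and 3. The WT libraries were nearly equal, and each SCADD library lay above them. The means were 184 ± 19.2 CPM in SCADD and 120.5 ± 0.439 CPM in WT (SD, n = 3 each). This is 1.53-fold, or 0.61 on the log2 scale (SE 0.14), with an edgeR adjusted p of 0.0235. The call was lost without SCADD replicate 1 or any 1 WT library (adjusted p 0.0776 to 0.110) and kept under the 13 other alternatives, among them 0.00604 without SCADD replicate 3 and 0.0269 with RSEM counts. In TPM the groups of Ces2e overlapped, with 93.9, 111 and 62.7 TPM in SCADD against 64.2, 58.7 and 58.4 TPM in WT.

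**Figure D2:**
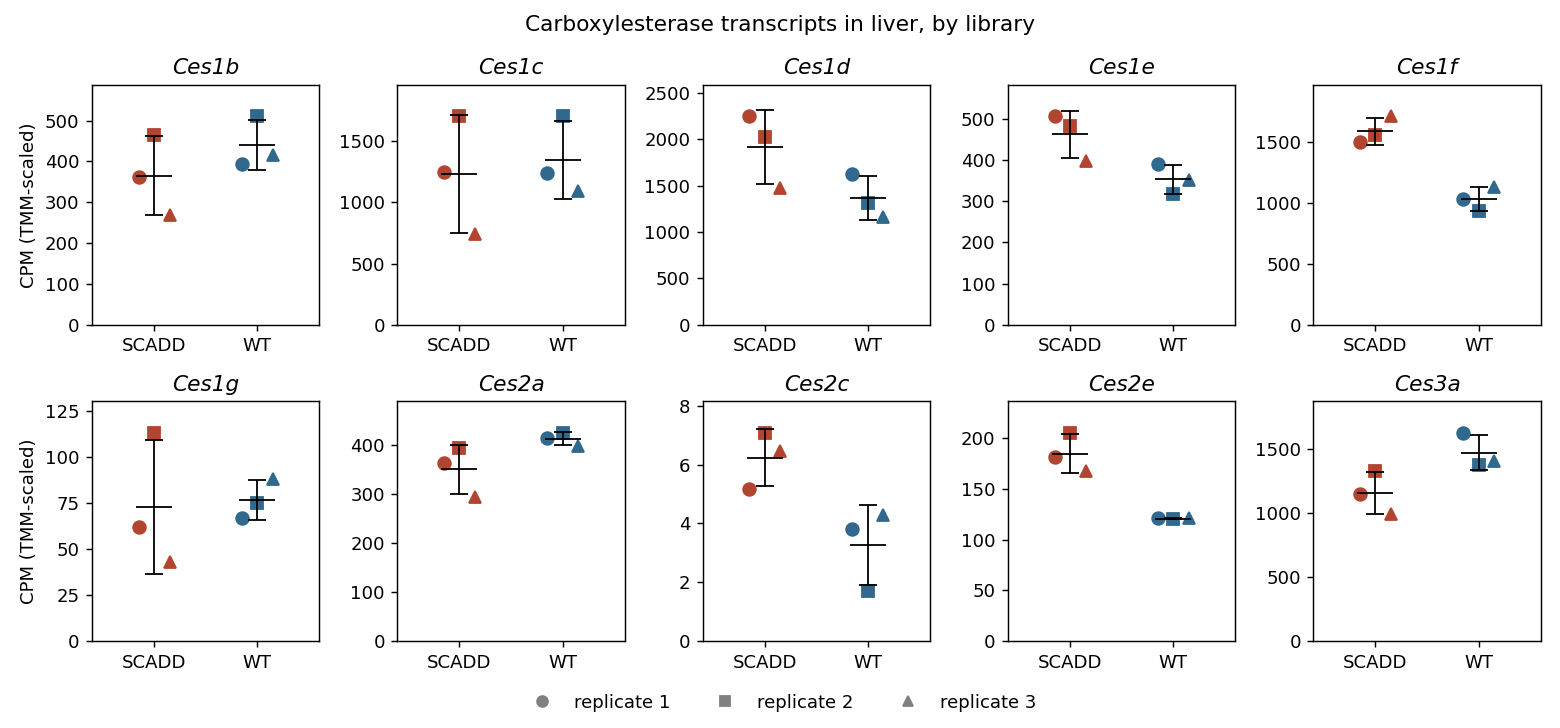
Level of the 10 genes in each library in CPM scaled by TMM, on linear axes that start at 0, SCADD on the left and WT on the right of each panel. Symbols mark the replicates, and the black bars show mean ± SD (n = 3). Ces1f and Ces2e, the genes that passed the test, have no overlap between groups, and Ces1c and Ces1g spread most widely within SCADD.

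Of the other Ces1 genes, Ces1d and Ces1e had positive log2 fold changes. Ces1d, the triacylglycerol hydrolase that mobilises stored hepatic lipid for VLDL, had 2249, 2029.6 and 1475 CPM in SCADD replicates 1, 2 and 3, against 1624, 1316 and 1162 CPM in WT replicates 1, 2 and 3. Only SCADD replicate 3 fell inside the range of WT. For Ces1d the log2 fold change was 0.49 (SE 0.21, 95% interval 0.03 to 0.95, edgeR adjusted p = 0.196), and it was 0.65 without SCADD replicate 3, with an adjusted p of 0.0307. Over the other 16 alternatives Ces1d was not called.

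Ces1e encodes egasyn, which holds beta-glucuronidase in the endoplasmic reticulum. It had 507, 484 and 398 CPM in SCADD replicates 1, 2 and 3, against 389.7, 319 and 352 CPM in WT replicates 1, 2 and 3. All SCADD libraries lay above all WT libraries, by a small margin for SCADD replicate 3. Its log2 fold change was 0.39 (SE 0.16, 95% interval 0.03 to 0.74, adjusted p = 0.181). Ces1e too was called without SCADD replicate 3 (log2 fold change 0.49, adjusted p = 0.0443) and under no other alternative.

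Ces1d, Ces1e and Ces1f lie next to each other on the minus strand, between 93166068 and 93279747. The genes on either side of them had negative values with wide intervals. Ces1c had 1246, 1706 and 743 CPM in SCADD replicates 1, 2 and 3, against 1244, 1704 and 1096 CPM in WT replicates 1, 2 and 3. The lowest value was that of SCADD replicate 3, while SCADD replicates 1 and 2 had 1246 and 1706 CPM, against 1096 to 1704 CPM in WT. The log2 fold change of Ces1c was -0.13 (95% interval -0.76 to 0.50, edgeR adjusted p = 0.838). It turned to 0.13 without SCADD replicate 3 and 0.07 without WT replicate 2. Ces1b, the closest copy of Ces1c, had 362, 465 and 269.5 CPM in SCADD livers and 394, 511 and 417 CPM in WT livers, with a log2 fold change of -0.27 (95% interval -0.73 to 0.19, adjusted p = 0.489). The pattern over libraries was like that of Ces1c, with replicate 2 the highest in each group.

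Ces1g, whose loss in mice leads to a fatty liver, was the most variable of the 10 genes in SCADD livers. It had 61.7, 113 and 43.0 CPM in SCADD replicates 1, 2 and 3, against 67.0, 74.8 and 88.1 CPM in WT replicates 1, 2 and 3. SCADD libraries held both the highest and the lowest value of the 6, and the coefficient of variation was 49.9% in SCADD and 13.9% in WT. The log2 fold change was -0.08 (95% interval -0.82 to 0.66, adjusted p = 0.923), and it ran from -0.55 to 0.19 as single libraries were left out.

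Among the Ces2 genes, Ces2c, which hydrolyses di- and triacylglycerols in mice, had the largest fold change of the 10 at the lowest level. It had 5.18, 7.08 and 6.45 CPM in SCADD replicates 1, 2 and 3, against 3.80, 1.71 and 4.28 CPM in WT replicates 1, 2 and 3. These values rest on 104 to 150 reads in SCADD and 39 to 114 reads in WT libraries, and the groups did not overlap. The log2 fold change was 0.92 (SE 0.30, 95% interval 0.27 to 1.58, edgeR adjusted p = 0.0908), or 0.62 without WT replicate 2. It passed with DESeq2 (adjusted p = 0.0351) and without a filter on low counts (0.00142), and its counts are the ones most open to reads shared with other Ces2 copies.

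Ces2a, the most abundant Ces2 transcript, had 363, 392 and 294 CPM in SCADD replicates 1, 2 and 3, against 414, 424 and 398 CPM in WT replicates 1, 2 and 3. All SCADD libraries lay below all WT libraries, but the step was small. On the log2 scale the difference for Ces2a was -0.24 (SE 0.16, 95% interval -0.58 to 0.11, adjusted p = 0.417), and it stayed between -0.33 and -0.12 over the alternatives. Summed over Ces2a, Ces2c and Ces2e, the level was 540.0 ± 68.5 CPM in SCADD and 536 ± 11.6 CPM in WT (SD, n = 3 each). These sums differed by less than the SD of the SCADD libraries.

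Ces3a, also known as esterase 31, had 1145, 1329 and 996 CPM in SCADD replicates 1, 2 and 3, against 1626, 1378 and 1407 CPM in WT replicates 1, 2 and 3. Again all SCADD libraries lay below all WT libraries. On the log2 scale the difference for Ces3a was -0.35 (SE 0.18, 95% interval -0.73 to 0.04, edgeR adjusted p = 0.276), and no alternative called it. Over the 10 genes the groups did not overlap in CPM for 6, with SCADD above WT for Ces1e, Ces1f, Ces2c and Ces2e and below it for Ces2a and Ces3a. The groups did not overlap in CPM for 28.0% of all tested genes, with SCADD above WT for 14.9% and below it for 13.1%. In TPM only Ces1f and Ces2c had no overlap, both with SCADD above WT, and Ces1e, Ces2a, Ces2e and Ces3a overlapped. The share of all tested genes without overlap in TPM was not computed.

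SCADD replicate 3 was the lowest of its group for 8 of the 10 genes, against 41.0% of all tested genes, and the lowest of all 6 libraries for 5 of them, against 21.9%. The exceptions in its group were Ces1f and Ces2c. Its value was 0.493 of the mean of the other 2 SCADD libraries for Ces1g, 0.504 for Ces1c and 0.652 for Ces1b, but 1.12 for Ces1f. The markers of hepatocytes, 8 genes led by albumin, summed to 94053 CPM in this library, against 123042 and 135202 in the other SCADD libraries and 103833 to 154462 in WT. Albumin alone made up 79586 CPM of that sum. Within SCADD, this library was the lowest for albumin, Apoa1, Ttr, Serpina1c, Cyp2e1 and Hnf4a, but not for Cps1 or Tat. Against WT, the markers other than albumin were mixed. In this library Cyp2e1 had 4129 CPM, above the 3542 to 3918 CPM of WT, and Apoa1 had 3133 CPM, below the 4495 to 4938 CPM of WT. Whether the state of this library had a part in the low Ces levels was not tested. Without it, 4 of the 10 genes were called, all higher (Ces1d, Ces1e, Ces1f and Ces2e), against 11.5% of all tested genes. With SCADD replicate 2 left out, 1 gene was called, Ces2e, against 6.61% of all tested genes. None was called when SCADD replicate 1 (3.74% of all tested genes), WT replicate 1 (5.09%), WT replicate 2 (2.86%) or WT replicate 3 (3.34%) was left out. DESeq2 called 3 of the 10 genes (9.56%), the fit with a replicate block 2 (8.50%), and upper-quartile scaling (7.05%) and RSEM counts (6.91%) 1 each.

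**Figure D3:**
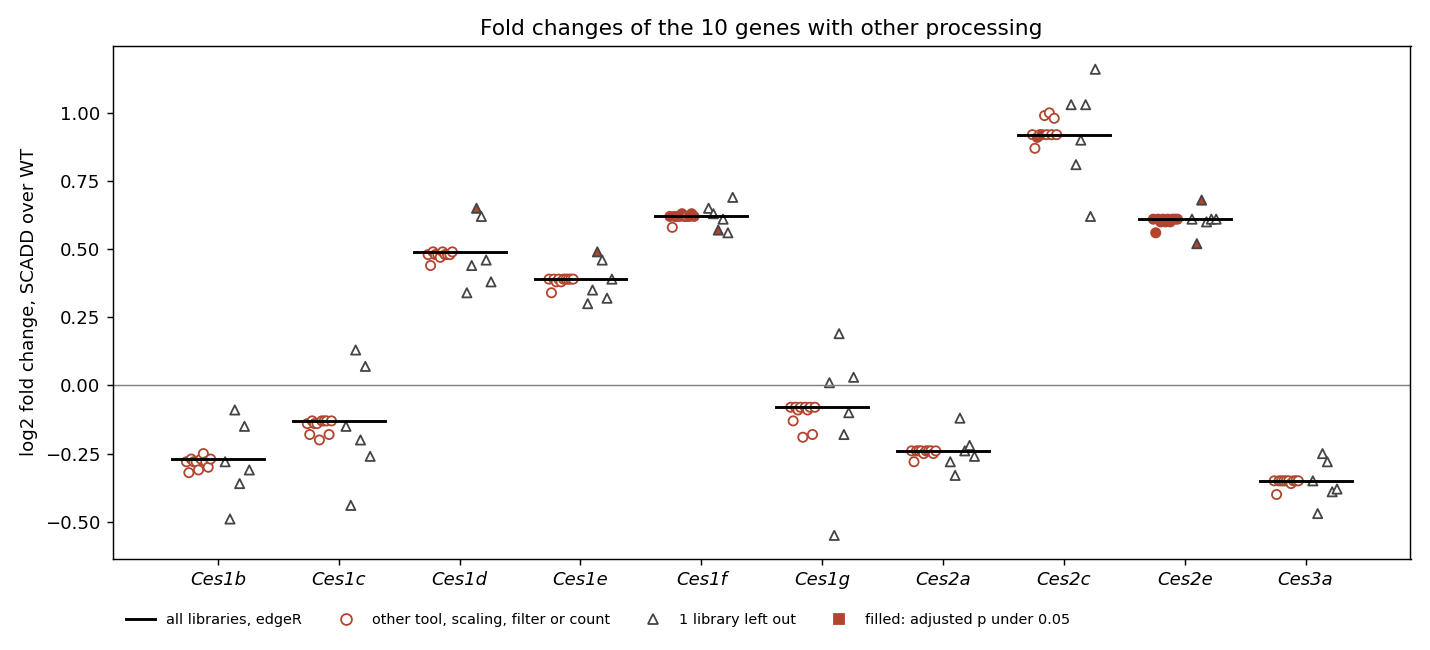
Log2 fold change of each of the 10 genes, SCADD over WT, with all libraries (black line), under other tools, scalings, filters or counts (circles) and with 1 library left out (triangles); filled symbols mark an adjusted p under 0.05. Ces1f and Ces2e stay between 0.52 and 0.69 throughout, while Ces1c and Ces1g cross 0 when single libraries are left out.

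Of the other 10 annotated Ces genes, Ces3b fell. It follows Ces3a on the plus strand (chromosome 8, 105083753 to 105093929) and had 200.1, 128 and 145 CPM in SCADD replicates 1, 2 and 3, against 377, 294 and 446 CPM in WT replicates 1, 2 and 3. All SCADD libraries lay below all WT libraries. On the log2 scale Ces3b changed by -1.24 (SE 0.21), 0.423-fold, with an edgeR adjusted p of 0.00668. It was called under all 17 alternatives, with RSEM counts too (adjusted p = 0.00791). Of the 50-base stretches of Ces3b, 26.1% also occurred in another gene, all of them in Ces3a, so reads from those stretches cannot be told apart.

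Ces2g averaged 11.5 ± 3.92 CPM in SCADD livers and 9.61 ± 0.389 CPM in WT livers (SD, n = 3 each), a difference of 0.26 on the log2 scale (SE 0.22, edgeR adjusted p = 0.525). Ces4a was near the limit of detection, with 7, 4 and 8 reads in SCADD libraries and 31, 11 and 37 reads in WT libraries (log2 fold change -1.68, adjusted p = 0.0669). It was called lower under 5 of the 15 alternatives that gave it a value, with no filter (0.00420), the replicate block (0.0260) and DESeq2 (0.0495), and without SCADD replicate 3 (0.0337) or WT replicate 2 (0.0488). The remaining 7 were not tested. Ces1h, Ces2f and Ces5a had 0 reads in each of the 6 libraries, which allows up to 3 reads in each. Ces2b had 0 reads in each SCADD library and 4, 2 and 8 reads in WT libraries, and Ces1a, Ces2d-ps and Ces2h had at most 7 reads in any library.

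On the chromosome the family forms a pair of clusters, 9 genes from Ces1a to Ces5a over 516 kb and 11 genes from Ces2a to Ces4a over 416 kb, with no tested gene of another family inside either. Positive values stood side by side in the middle of the first cluster, in Ces1d, Ces1e and Ces1f, and in the second cluster Ces2a was negative, Ces2c, Ces2e and Ces2g were positive, and Ces3a, Ces3b and Ces4a were negative. Of all tested genes 7.02% were called, and of the 10 tested genes nearest to the first cluster 1 was called. This was Mt2, a metallothionein, which fell to 24.6, 5.76 and 17.7 CPM in SCADD livers, against 199, 212 and 181 CPM in WT livers (log2 fold change -3.62, edgeR adjusted p = 0.0101, and 0.0811 without SCADD replicate 3). Beside the second cluster 2 of 10 were called, with Pdp2, a phosphatase that activates pyruvate dehydrogenase, higher at a log2 fold change of 0.76 (adjusted p = 0.0137, up to 0.0700 with 1 library left out) and D230025D16Rik lower at -0.55 (adjusted p = 0.0337, up to 0.128).

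**Figure D4:**
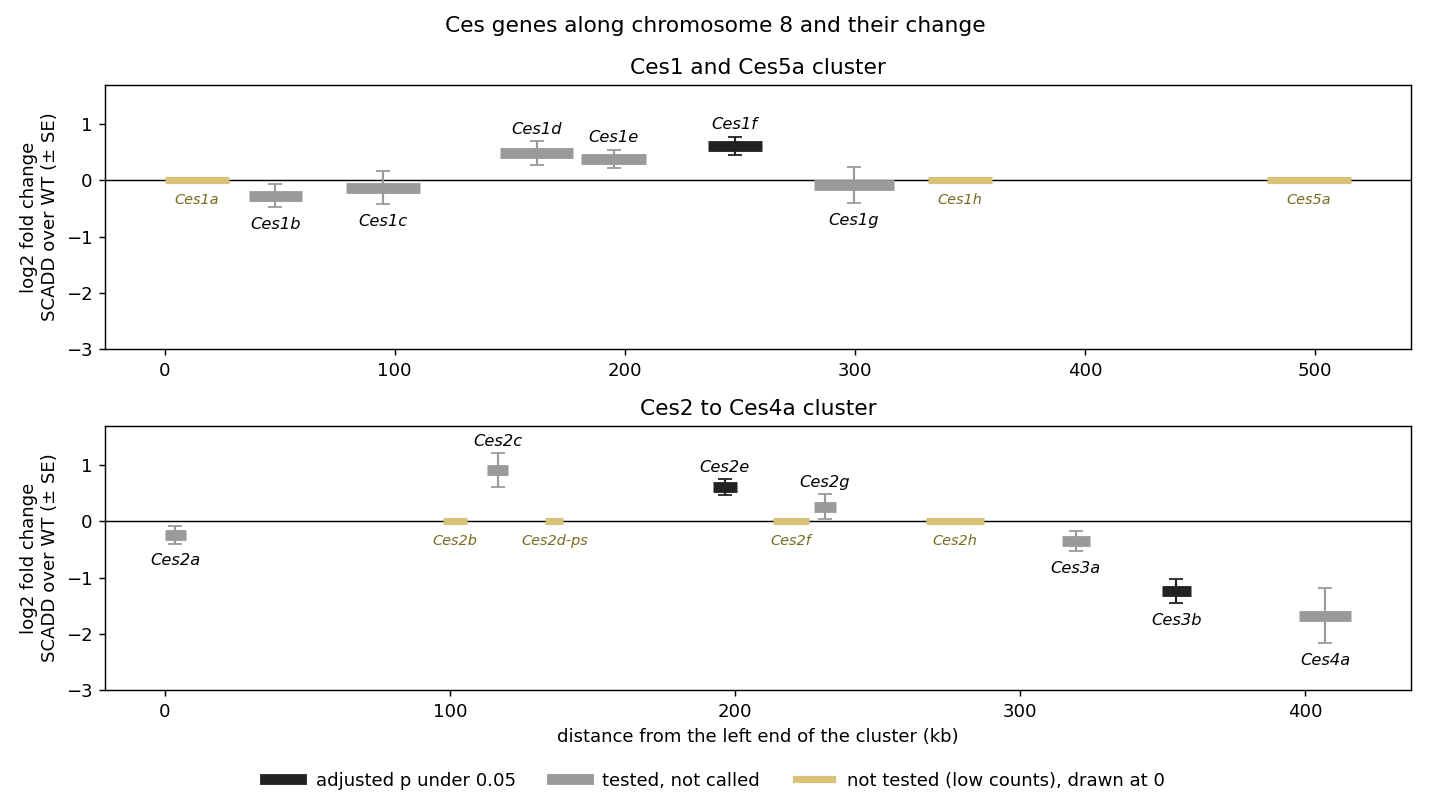
Ces genes drawn to scale along the clusters of chromosome 8, by distance in kb from the left end of each cluster, at their log2 fold change, SCADD over WT, with bars of 1 SE. Black marks genes with an adjusted p under 0.05 and pale bars at 0 mark genes with too few reads to test. Ces1f and Ces2e lie at 0.62 and 0.61, and Ces3b at -1.24.

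Ces2e rose and Ces2a did not pass the test. They lie in the same cluster on the same strand, and their promoters are shown side by side; the difference between their fold changes was not tested. They are RefSeq sequences on GRCm38.p6, plus strand, from 250 bases before to 50 bases after the transcript start, at chr8:104926010-104926309 for Ces2e and chr8:104733753-104734052 for Ces2a. Capitals mark the longest run of letters common to both, 17 bases, which begins 183 bases before the start in Ces2e and 205 bases before it in Ces2a.
Ces2e: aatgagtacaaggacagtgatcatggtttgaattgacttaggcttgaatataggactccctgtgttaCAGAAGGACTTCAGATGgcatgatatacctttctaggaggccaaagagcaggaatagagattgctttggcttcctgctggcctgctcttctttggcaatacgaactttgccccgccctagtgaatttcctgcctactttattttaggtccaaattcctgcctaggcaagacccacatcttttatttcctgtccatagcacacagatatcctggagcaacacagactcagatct
Ces2a: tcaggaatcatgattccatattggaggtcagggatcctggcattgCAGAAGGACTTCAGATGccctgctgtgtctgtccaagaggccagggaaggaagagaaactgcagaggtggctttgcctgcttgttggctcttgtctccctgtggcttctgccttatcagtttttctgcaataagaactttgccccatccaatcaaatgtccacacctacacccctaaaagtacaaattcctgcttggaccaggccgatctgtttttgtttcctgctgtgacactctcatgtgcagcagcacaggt

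Identity over the 300 bases was 54.9% between Ces2e and Ces2a, 54.1% between Ces2e and Ces2c and 65.0% between Ces2a and Ces2c. RefSeq promoters were matched for 7 of the 10 genes, with 8 promoters in all. None was matched for Ces1d, Ces1f or Ces3a, so these genes, with the called gene Ces1f among them, were not searched. Searched on both strands, the letters TTGCNNAA, a C/EBP motif, occurred in 5 of the 8 (in Ces1b, Ces1c, Ces2a and Ces2e), against 10.8% of 32851 promoters, and CCAAT in 6 of the 8 (in Ces1b, Ces1c, Ces1g, Ces2a and Ces2c), against 37.4%. AGGTCA, a nuclear receptor half-site, was found in Ces2a alone (16.3% of all promoters), TATAAA in Ces1g alone (13.6%), and GTTAAT, an HNF1 half-site, in none (7.1%). The 5 and 6 matches lie in fewer genes, because alternative promoters of the same gene were counted separately. The members that share letters are also copies of one another, so these are not independent matches.

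Other hydrolases of the liver and their partners moved in both directions, with 5 of 29 tested genes called higher and 2 lower (median log2 fold change 0.29), against 4.22% higher and 2.80% lower of all tested genes. The lists that follow are small, and their counts are to be read against the same shares. Abhd6, a monoacylglycerol hydrolase, had 90.7, 76.6 and 90.6 CPM in SCADD livers, against 36.6, 33.8 and 36.6 CPM in WT livers (log2 fold change 1.27, edgeR adjusted p = 0.000326). Lipg, endothelial lipase, also rose, by 1.53 on the log2 scale (adjusted p = 0.00207), and Lpl, lipoprotein lipase, fell by 2.03 on the log2 scale (adjusted p = 0.00262). All 3 kept their calls under the 17 alternatives.

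Of 14 tested genes of VLDL assembly 2 were called, both higher (median 0.13). Dgat2, which carries out the last step of triacylglycerol synthesis, had 368, 439.9 and 421 CPM in SCADD livers, against 168, 181 and 208 CPM in WT livers (log2 fold change 1.14, edgeR adjusted p = 0.00207). Surf4, a cargo receptor of the endoplasmic reticulum, had 199, 206 and 171 CPM in SCADD livers, against 100.3, 102 and 110.1 CPM in WT livers (log2 fold change 0.88, adjusted p = 0.00418). The other 12 did not pass the test. Among them, and chosen after their values were seen, Apoe had 11526, 11983 and 10853 CPM in SCADD livers, against 17985, 18809 and 17723 CPM in WT livers (log2 fold change -0.67, adjusted p = 0.0539), and Apoc3 had a log2 fold change of -0.54 (adjusted p = 0.0834). Both are apolipoproteins of VLDL, and for both each SCADD library lay below each WT library. The summed level of the list was 22617 to 23560.0 CPM in SCADD and 29072 to 30219 CPM in WT. That difference came mainly from Apoe, with means of 11454 CPM in SCADD and 18172 CPM in WT. The means of Apob ran the other way, at 6688 CPM in SCADD and 6115 CPM in WT. The sum thus does not show a fall of the list as a whole.

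Among 17 tested transcription factors of the kind that act on Ces genes 2 were called, both higher (median 0.11). Nr1i3 encodes the constitutive androstane receptor, CAR, a sensor of foreign compounds. It had 315, 369 and 326 CPM in SCADD livers, against 145, 171 and 199 CPM in WT livers (log2 fold change 0.97, edgeR adjusted p = 0.00617). Klf3, a zinc-finger factor, had a log2 fold change of 0.61 (adjusted p = 0.0373, up to 0.172 with 1 library left out). Of 15 tested targets of CAR and the related receptor PXR, 2 were called higher and 1 lower (median 0.38). They were Alas1, the first enzyme of heme synthesis (1.08, adjusted p = 0.00498), Por, the cytochrome P450 reductase (0.61, adjusted p = 0.0302), and Cyp3a13, which fell by 0.69 on the log2 scale (adjusted p = 0.0246). With 1 library left out, the adjusted p reached 0.149 for Por and 0.114 for Cyp3a13, and it stayed at or under 0.0438 for Nr1i3 and 0.0422 for Alas1.

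**Figure D5:**
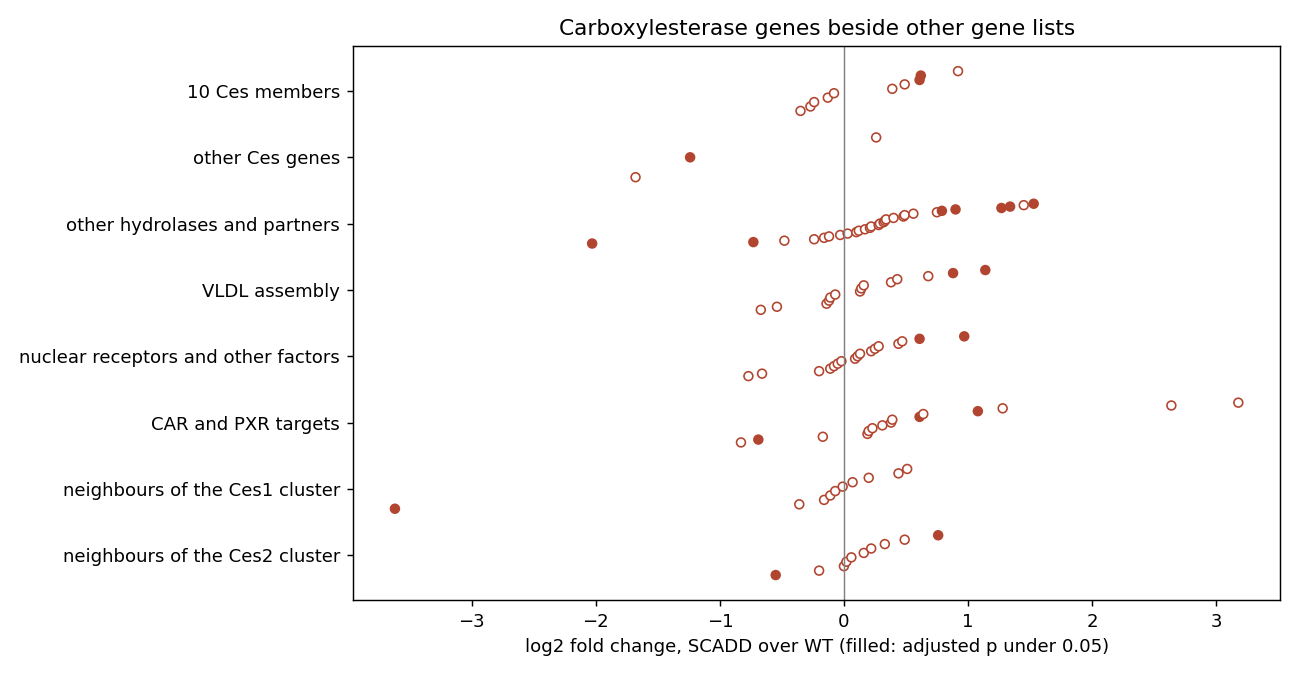
Log2 fold change, SCADD over WT, of each tested gene in the Ces family and in the other lists, 1 point a gene; filled points have an adjusted p under 0.05. The 10 carboxylesterase genes span -0.35 to 0.92, Ces3b and Ces4a lie at -1.24 and -1.68, and the 29 other hydrolases and partners run from -2.03 for Lpl to 1.53 for Lipg.

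The genes whose pattern over the 6 libraries was most like that of Ces2e, by the root mean square difference of centred log2 CPM, were Psme1 (0.0290), Mgam (0.0405), Ctsz (0.0407), Cyp4a12a (0.0415) and Samd8 (0.0564). Psme1 encodes an activator subunit of the proteasome, and it had 42.8, 47.6 and 38.2 CPM in SCADD livers, against 27.7, 26.9 and 28.6 CPM in WT livers. As with Ces2e, replicate 2 was the highest and replicate 3 the lowest of SCADD, a likeness that follows from how Psme1 was picked. No other carboxylesterase gene was among the 5.

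Markers of hepatocytes and of other cells were given the same test. Of 8 hepatocyte markers 1 was called lower, Cps1, and none higher. The 6 Kupffer cell markers summed to 166, 154 and 268 CPM in SCADD livers and 265, 223 and 193 CPM in WT livers, with none called, and the 6 endothelial markers to 104, 124 and 165 CPM in SCADD and 181, 174 and 173 CPM in WT, with Lyve1 called lower. Most of the difference between the endothelial sums came from Clec4g, with 53.8, 65.6 and 104 CPM in SCADD and 117, 112 and 115 CPM in WT (edgeR adjusted p = 0.110). For Clec4g, Lyve1, Pecam1 and Stab1 each SCADD library lay below each WT library, as for 13.1% of all tested genes. Pecam1 and Stab1 were not called, and Stab2 and Kdr overlapped between groups. The part of any cell type in the fall of Lpl was not tested. The 5 fat cell markers summed to 59.6, 22.1 and 119.7 CPM in SCADD livers and 47.8, 22.1 and 29.3 CPM in WT livers, mostly from Fabp4 and Cidec. Adipoq was 4.67 CPM in WT replicate 1 and at most 0.612 CPM in any other library. WT replicate 1 also had the highest Lpl, 47.4 CPM, against 35.8 and 22.0 CPM in WT replicates 2 and 3. Without WT replicate 1 the log2 fold change of Lpl was -1.76 (edgeR adjusted p = 0.00254). Of the intestinal markers, Lct, Cdx2 and Alpi were at 0 in each library, and Fabp2, which liver also expresses, had 524, 311 and 801 CPM in SCADD livers, against 242, 242 and 306 CPM in WT livers, and was not called. No stellate cell, cholangiocyte or lymphocyte marker was called, with 6 of 6, 3 of 5 and 2 of 5 tested. For the cholangiocyte markers Epcam and Spp1 each SCADD library lay below each WT library (edgeR adjusted p = 0.0773 and 0.0987), and Sox9 overlapped. Cela1, the only pancreatic marker tested, was called lower while Cpa1, Prss2 and Ctrb1 were at 0. With 1 library left out, the adjusted p reached 0.111 for Cela1, 0.0703 for Lyve1 and 0.0504 for Cps1.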

How the data were processed

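Poly(A) RNA of 6 livers was sequenced with stranded libraries. Per the submitters' processing notes, reads were aligned to GRCm38 with STAR 2.7.6a and quantified with RSEM 1.3.3; the annotation release is not given in the sources used here. The authors deposited STAR's raw counts of uniquely mapped reads per gene, unstranded and for each strand, and RSEM's expected counts, TPM and effective lengths. The strand holding 96.84% to 97.28% of stranded reads was used. Rows for unmapped, multimapped, ambiguous or unannotated reads were left out of library sizes. Multimapped reads were 10.11% to 13.13%, so copies that share sequence lose reads.

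Counts were tested with edgeR 4.0.16 (R 4.3.3; filterByExpr with a minimum count of 10, TMM, robust quasi-likelihood, group as the only term). Alternatives used limma 3.58.1, DESeq2 1.42.0 and rounded RSEM counts. Scripts were tested on simulated data. Each SE was obtained from the fold change and its F statistic. Coordinates come from GENCODE M21, which matched 55227 of 55487 genes; identities were computed with Biopython 1.88. The 3 called genes of smallest p in each list were named, besides all Ces genes. The members and lists were chosen with earlier results of these data known. Nothing in the labels says more of the animals' origin than their substrain, so p-values measure the spread between these animals. A planned comparison of proteins was not made.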

Additional observations from a re-analysis of the deposited data

How the results depend on the processing

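Of 559 log2 fold changes of 33 named genes under the alternatives, 498 kept their direction and side of the threshold, 46 lost the call, 9 gained it and 6 turned direction. The 6 were Ces1c (0.13 without SCADD replicate 3, 0.07 without WT replicate 2; range with 1 library left out -0.44 to 0.13), Ces1g (0.01 without SCADD replicate 1, 0.19 without SCADD replicate 3, 0.03 without WT replicate 3; range -0.55 to 0.19) and Ces2g (-0.03 without SCADD replicate 2; range -0.03 to 0.47). Over all genes 947 were called (569 higher, 378 lower), against 1702 with no filter (950 higher, 752 lower) and 470 higher and 482 lower with upper-quartile scaling. Upper-quartile scaling and RSEM counts each left 1 of the 10 genes called, and DESeq2, 1290 genes in all, called 3. Leaving out 1 library gave 395 to 1590 calls, 240 to 909 higher and 155 to 681 lower, and 0 to 4 of the 10 genes called (0 to 4 higher, 0 to 0 lower). Single libraries decide that count: leaving out WT replicate 2 gave 395 calls, WT replicate 3 460, SCADD replicate 1 517 and SCADD replicate 3 1590, and the cause was not tested. The main fit did not pair same-numbered libraries. Correlations of deviations were 0.061, 0.037 and 0.107 for libraries of the same number and -0.127 to 0.061 for libraries of different number. These small values cannot settle whether libraries of the same number shared a batch. The replicate block gave 1148 calls (668 higher, 480 lower) and 2 of the 10 genes. Leaving the Mup genes out of library sizes, chosen after seeing the data, gave 941.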
